A study of Harpegnathos saltator with 22 samples.

Results

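The ovaries of mature gamergates of the ant Harpegnathos saltator were compared between 7 ants given siRNA against Kr-h1 and 6 ants given siRNA against GFP. These 13 libraries, chosen by the caste and knockdown that their labels state, are part of a series of 22. The other 9 libraries came from workers, 4 given Kr-h1 siRNA and 5 given GFP siRNA, and are used here only to show where the gamergate response differed. Every ant was injected in the head, below the antennae, with siRNA of the dicer-substrate type in a glucose solution with a transfection reagent, and its ovaries were taken 24 h later. Kr-h1 siRNA gamergates and GFP siRNA gamergates therefore shared the injection, the reagent and the caste, and the labels describe 1 kind of housing for every ant. GFP is a jellyfish protein that an ant has no gene for, and the treatment text of the labels spells the control differently (GRP). Each library was made from polyadenylated RNA of the ovaries of a single ant.

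Kr-h1 (Krüppel homolog 1) is a zinc-finger transcription factor best known as the early response gene of juvenile hormone, and in flies it also interacts with the ecdysone cascade. In Harpegnathos, workers can duel and become gamergates, which mate, lay eggs and carry large active ovaries. Insect oocytes grow beside nurse cells, which load them with RNA and protein, and inside a sheet of somatic follicle cells, which secrete the eggshell and lay down the cues for the body axes under the timing of ecdysone pulses. In a whole ovary, fewer cells of a type and less RNA per cell cannot be told apart.

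The authors' deposited table gives, for each of 13693 genes, a mean normalized count over the 13 gamergate libraries, a log2 fold change of Kr-h1 over GFP siRNA, a p-value and an adjusted p. No value per ant could be used, so depth per library is unknown, and neither the spread within a group nor an overlap between groups can be shown. Levels below are group means of normalized counts derived from the table's mean and fold change, and "rose" and "fell" mean an adjusted p under 0.05 by the DESeq2 test that the submitters name. Of 11145 genes tested, 997 rose (8.95%) and 657 fell (5.90%), and the median log2 fold change of all genes tested was 0.00. The changes were mostly small: 129 of the genes that rose and 74 of those that fell did so by at least 2-fold. The median size was 0.38 on the log2 scale among the genes that rose and 0.35 among those that fell. The share of genes called went with abundance, at 5.56% for means under 50 and 21.1% for means from 1000 to 3000. The SE of a fold change, recovered from its p-value, had a median of 0.43 in the first of these classes and 0.09 in the second.

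**Figure D1:**
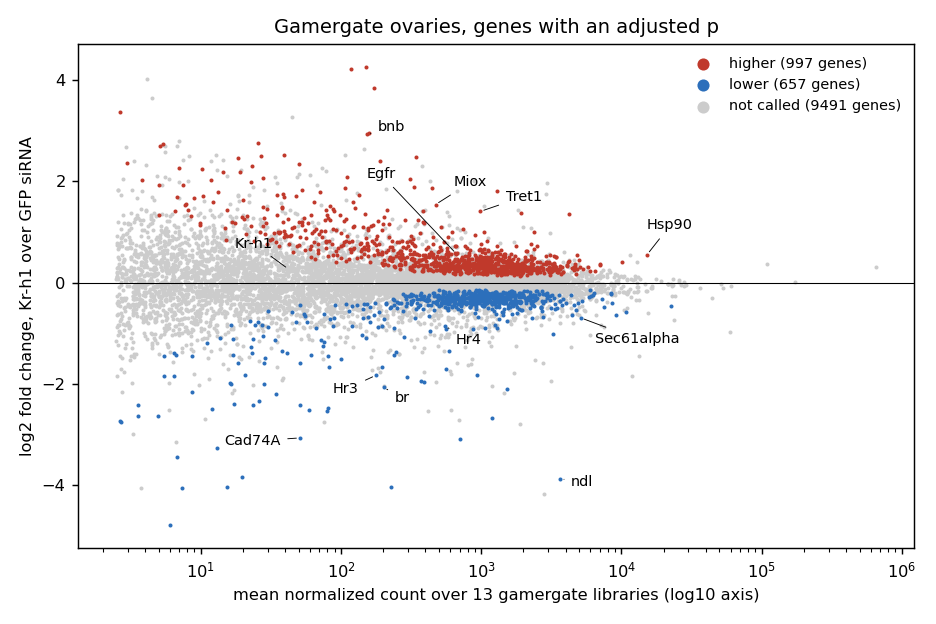
Each point is 1 gene with an adjusted p, with the mean normalized count over the 13 gamergate libraries on a log10 horizontal axis and the log2 fold change of Kr-h1 over GFP siRNA on the vertical axis. The 997 genes that rose and the 657 that fell are coloured and lie on both sides of 0, and ndl stands lowest among the called genes with a mean of at least 1000.

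Germ-line genes and the yolk receptor gene were expressed in both groups, which does not by itself show egg production. The germ-line genes vas, orb, nanos and BicD had derived levels of 6915, 4963, 3463 and 1576 in Kr-h1 siRNA gamergates, against 6316, 3873, 2884 and 1146 in GFP siRNA gamergates. The yolk receptor gene yl, which takes vitellogenin into the oocyte, was at 11089 in Kr-h1 siRNA gamergates and 10763 in GFP siRNA gamergates and was not called (log2 0.04 in the authors' deposited table). Of 5 germ-line genes tested, DESeq2 called 2 higher, nanos (log2 0.26 in the authors' deposited table) and BicD (0.46), and none lower (0 at an unadjusted p under 0.05). That is 40% higher, beside 8.95% of all genes tested, in a list of few genes. The yolk protein gene vg itself, which insects make mainly in the fat body, was low at 25.7 with Kr-h1 siRNA and 21.4 with GFP siRNA.

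Kr-h1, the targeted gene, was not called in the ovary after the head injection. Its derived level was 45.8 in Kr-h1 siRNA gamergates and 38.2 in GFP siRNA gamergates. The log2 fold change in the authors' deposited table was 0.26, with a recovered SE of 0.47 and a 95% interval from -0.66 to 1.19 (adjusted p = 0.734, DESeq2). The interval spans changes in both directions, and the level of Kr-h1 in the head was not analysed here.

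Among genes of the hormone pathways that Kr-h1 belongs to, 3 transcription factors of the ecdysone cascade fell and most others were not called. The zinc-finger factor br (broad), which patterns the follicle cells that make the dorsal eggshell in flies, had a derived level of 81.3 in Kr-h1 siRNA gamergates and 341 in GFP siRNA gamergates, a 4.20-fold difference. The nuclear receptor Hr3, which ecdysone induces, was at 81.2 with Kr-h1 siRNA and 289 with GFP siRNA, and the related receptor Hr4 at 400.5 with Kr-h1 siRNA and 725 with GFP siRNA. All 3 fell in the authors' deposited table, Hr3 with an adjusted p of 8.71e-08, Hr4 with 0.000601 and br with 0.0128 (DESeq2). The recovered SE of the log2 fold change was 0.28 for Hr3, 0.19 for Hr4 and 0.62 for br, so the size of the br change is the least certain. In the other direction, usp (ultraspiracle), the partner of the ecdysone receptor, rose to 706 with Kr-h1 siRNA, against 591 with GFP siRNA, and Hr39, a nuclear receptor, rose to 713 with Kr-h1 siRNA, against 591 with GFP siRNA.

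Of 26 hormone-signalling genes tested, 2 rose and 3 fell, with a median of -0.06. These are shares of 7.69% and 11.5%, beside 8.95% and 5.90% of all genes tested. The ecdysone receptor gene Ecr itself had derived levels of 1071 with Kr-h1 siRNA and 995 with GFP siRNA and was not called (log2 0.11 in the authors' deposited table). The early ecdysone genes E75 (1051 with Kr-h1 siRNA, 1253 with GFP siRNA) and Eip74EF (1968 with Kr-h1 siRNA, 1734 with GFP siRNA) were not called, nor was the competence factor ftz-f1 at 1167 with Kr-h1 siRNA and 1976 with GFP siRNA. The interval for ftz-f1 was wide, with a recovered SE of 0.52. Genes that make ecdysteroids were level or uncertain: dib was at 2146 with Kr-h1 siRNA and 2154 with GFP siRNA, sro at 1211 with Kr-h1 siRNA and 1307 with GFP siRNA, and shd, whose product makes the active hormone, at 2531 with Kr-h1 siRNA and 3155 with GFP siRNA. Cyp18a1, which breaks ecdysteroids down, was at 345 with Kr-h1 siRNA and 1042 with GFP siRNA, a log2 fold change of -1.60 in the authors' deposited table with a recovered SE of 0.84 that did not pass (adjusted p = 0.174, DESeq2).

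Genes of the follicle cells and the eggshell were among the largest falls. The serine protease gene ndl (nudel), secreted by fly follicle cells to harden the eggshell and to start the dorsal-ventral protease cascade, had a derived level of 503 in Kr-h1 siRNA gamergates and 7360 in GFP siRNA gamergates. Its log2 fold change of -3.87 in the authors' deposited table had a recovered SE of 0.51, so the 95% interval ran from -4.87 to -2.87. The cadherin Cad74A, which fly follicle cells use when they shape the dorsal appendages, was at 11.6 with Kr-h1 siRNA and 96.8 with GFP siRNA, and Cad88C at 26.0 with Kr-h1 siRNA and 145 with GFP siRNA. The chaperone-like gene wbl (windbeutel), needed in the fly for the sulphation step of the dorsal-ventral pathway, fell to 1786 with Kr-h1 siRNA, against 2916 with GFP siRNA. Chsy, a chondroitin synthase, was at 160 with Kr-h1 siRNA and 615 with GFP siRNA, Past1, an endocytic recycling protein, at 273 with Kr-h1 siRNA and 893 with GFP siRNA, and the phosphatase gene Ptp36E at 94.2 with Kr-h1 siRNA and 193 with GFP siRNA.

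Of 9 eggshell and dorsal-ventral genes tested, 3 fell (ndl, wbl and sel) and fs(1)N rose, with a median of -0.20. These are shares of 33.3% and 11.1%, beside 5.90% and 8.95% of all genes tested. For fs(1)N, an eggshell-associated protein of the terminal system, the derived level was 2621 with Kr-h1 siRNA and 2025 with GFP siRNA (log2 0.37 in the authors' deposited table), and its call is lost with every gene in the adjustment (adjusted p = 0.0563, Benjamini-Hochberg on the DESeq2 p-values). The torso-like gene tsl, made by follicle cells at the poles of the fly egg, was at 956 with Kr-h1 siRNA and 1696 with GFP siRNA and was not called (adjusted p = 0.261, DESeq2). The genes that act in the egg rather than in the follicle were not called either: the receptor Tl stood at 992 with Kr-h1 siRNA and 810 with GFP siRNA, the inhibitor cact at 1528 with Kr-h1 siRNA and 1250 with GFP siRNA, and the kinase pll at 902 with Kr-h1 siRNA and 860 with GFP siRNA.

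Follicle-cell markers did not all move together. Of 6 tested, ndl, br and Cad74A fell (50%) and mirr rose (16.7%), to 272 with Kr-h1 siRNA against 166 with GFP siRNA. The shares of all genes tested were 5.90% and 8.95%. The general follicle-cell markers tj, a Maf factor, and Fas3, an adhesion molecule, were at 1151 and 353 with Kr-h1 siRNA and at 1334 and 385 with GFP siRNA and were not called (log2 -0.21 and -0.12 in the authors' deposited table). Summed over the 8 follicle-cell genes of the list, the derived level was 2422 with Kr-h1 siRNA and 14493 with GFP siRNA. Most of the GFP siRNA sum was ndl and yellow-g. Both sums include yellow-g and yellow-g2, which carry no p-value and are not called, so they do not give a tested difference. No stage of the follicles is recorded for these ants.

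**Figure D2:**
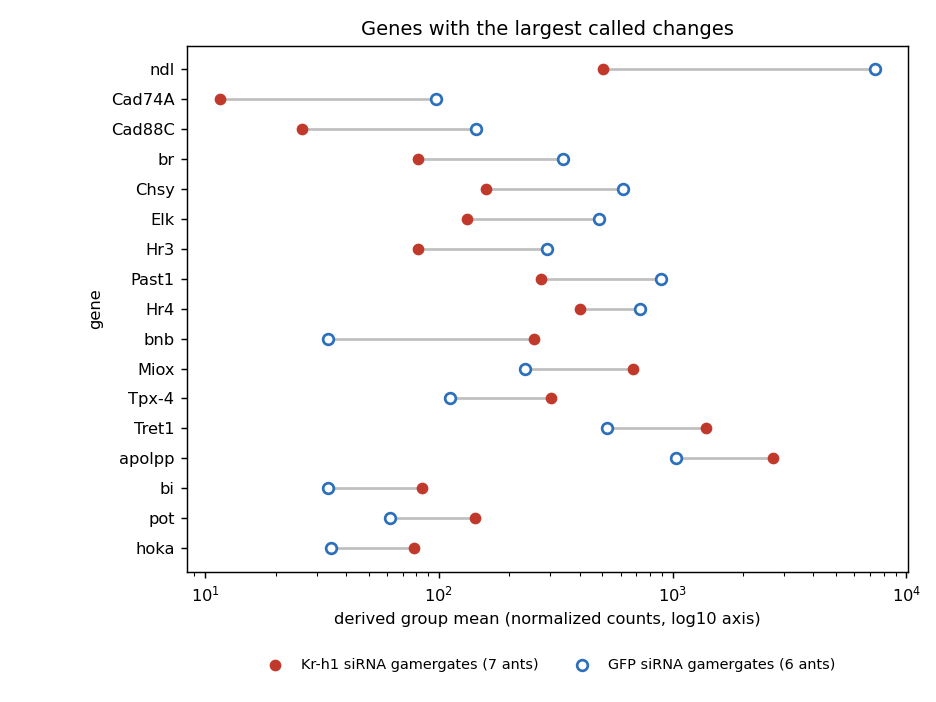
Derived group means of normalized counts on a log10 axis for 17 genes with large called changes, with filled points for Kr-h1 siRNA gamergates and open points for GFP siRNA gamergates. The 9 genes at the top are lower with Kr-h1 siRNA, by 14.6-fold for ndl, and the 8 at the bottom are higher, by 7.58-fold for bnb.

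Some of the most negative fold changes carry no p-value and are in none of the counts above, 4 of the 10 most negative among them. For 28 genes the authors' deposited table gives a fold change in gamergates but no p-value, and all 28 were lower with Kr-h1 siRNA, 17 by at least 2-fold and 9 by at least 4-fold. Their summed derived level was 5831 in Kr-h1 siRNA gamergates and 46101 in GFP siRNA gamergates. Whether the missing p-values and the shared direction have the same source was not tested, so neither the direction nor this sum is read as a response. The uncharacterized gene LOC105181254 was the most extreme, at 36.2 with Kr-h1 siRNA and 21816 with GFP siRNA (log2 -9.23 in the authors' deposited table). The pair yellow-g and yellow-g2, whose fly counterparts are made by late follicle cells and cross-link the eggshell, were at 24.1 and 26.6 with Kr-h1 siRNA and at 4489 and 322 with GFP siRNA. They belong to a family of related sequences, and reads shared by both copies could make the counts of each uncertain.

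Other uncharacterized genes in this group were LOC105182130, at 37.9 with Kr-h1 siRNA and 928 with GFP siRNA, LOC105183116, at 275 with Kr-h1 siRNA and 3590 with GFP siRNA, and LOC105190429, at 3331 with Kr-h1 siRNA and 10418 with GFP siRNA. The third gene of the 28 with a descriptive symbol, the Rab-GTPase regulator Tbc1d8-9, was at 1180 with Kr-h1 siRNA and 2576 with GFP siRNA. The sources used here do not say why these genes carry no p-value, and whether a group mean rests on 1 ant cannot be seen without values per ant, so none of the 28 is called. In the deposited comparison of workers with gamergates under GFP siRNA, 20 of the 28 also had no p-value. That comparison shares only the GFP siRNA gamergates with the one used here. In the worker knockdown comparison 1 of the 28 had none, and the reason was not tested. Of the 28, 25 were tested in the separate set of worker ants, where 10 were called lower and 0 higher by the adjusted p of DESeq2 (16 and 0 at an unadjusted p under 0.05). Of all 10577 genes tested in workers, 2.69% were called lower and 2.23% higher. Among those 10 were LOC105181254 (log2 -4.99 in workers and an adjusted p of 0.000119 by DESeq2 in the authors' deposited table) and LOC105182130 (-5.90 there, adjusted p = 0.00745). In workers, 88 genes have a fold change and no p-value, and 83 of them were lower with Kr-h1 siRNA.

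**Figure D3:**
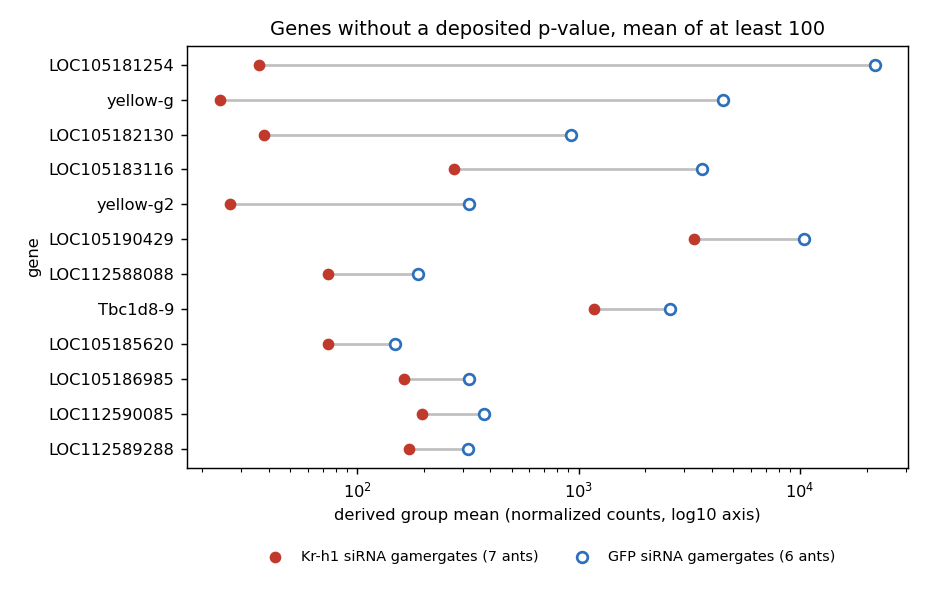
Derived group means of normalized counts on a log10 axis for the 12 genes that have a fold change but no p-value and a mean of at least 100, with filled points for Kr-h1 siRNA gamergates and open points for GFP siRNA gamergates. Each of the 12 is lower with Kr-h1 siRNA, LOC105181254 and yellow-g by the widest margins, and none of these differences is tested.

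Genes of the secretory pathway, which moves proteins through the endoplasmic reticulum (ER) and Golgi to the cell surface, were among the most frequent falls. Of 81 tested, 25 fell and 2 rose, shares of 30.9% and 2.47% beside 5.90% and 8.95% of all genes tested, and the list median was -0.12. The channel through which new proteins enter the ER fell: Sec61alpha was at 3985 with Kr-h1 siRNA and 6453 with GFP siRNA, and Sec61beta at 2912 with Kr-h1 siRNA and 4140 with GFP siRNA. Its helper TRAM fell to 1146 with Kr-h1 siRNA, against 1774 with GFP siRNA (log2 -0.63 in the authors' deposited table). Of 6 genes of the signal recognition particle, which brings ribosomes to that channel, 4 fell, Srp9 among them (1403 with Kr-h1 siRNA, 1857 with GFP siRNA).

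Members that fell came from several steps of that route. The signal peptidase subunits Spase12 and Spase22-23 both had a log2 value of -0.39 in the authors' deposited table. The glycosylation subunits Ost48, OstDelta and Ostgamma were at -0.25, -0.25 and -0.46 there, where a size of 0.46 is a 1.37-fold decrease. Among chaperones that fold secreted proteins, Calr (calreticulin) was at 19124 with Kr-h1 siRNA and 26509 with GFP siRNA, Pdi at 7428 with Kr-h1 siRNA and 9769 with GFP siRNA, and Manf, which ER stress induces, at 2226 with Kr-h1 siRNA and 3154 with GFP siRNA. Carriers between ER and Golgi fell too: KdelR, which returns ER proteins, was at 1303 with Kr-h1 siRNA and 1853 with GFP siRNA (adjusted p = 0.000147 in the authors' deposited table, DESeq2), and the cargo receptor ergic53 at 2809 with Kr-h1 siRNA and 4024 with GFP siRNA. The coat and fusion genes Sar1, zetaCOP and Sec22 were at -0.25, -0.33 and -0.27 on the log2 scale in the deposited table. The 2 members that rose were garz (0.40 in the authors' deposited table), an exchange factor for the Golgi GTPase Arf, and Tango10 (0.31).

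Genes of the mitochondrial ribosome were lower by small amounts, and fewer than 1 in 3 passed the test. Of 77 genes of the mitochondrial ribosome and its factors tested, DESeq2 called 23 lower and none higher (an unadjusted p under 0.05 gave 55 lower and 0 higher), and 74 had a negative fold change, with a median of -0.24. The share of the list called lower was 29.9%, beside 5.90% of all genes tested. Among small-subunit genes 11 of 26 fell, and among large-subunit genes 11 of 44. The largest was mRpS34, at 1006 with Kr-h1 siRNA and 1490 with GFP siRNA (log2 -0.57 in the authors' deposited table, recovered SE 0.14), followed by mRpL17 (-0.49 there) and mRpL34 (-0.47). The small-subunit gene tko was at 956 with Kr-h1 siRNA and 1270 with GFP siRNA. Other mitochondrial genes that fell were CysRS-m, which charges mitochondrial tRNA with cysteine, at 566 with Kr-h1 siRNA and 813 with GFP siRNA, the polymerase subunit gene DNApol-gamma35 at 735 with Kr-h1 siRNA and 947 with GFP siRNA, and the complex I subunit ND-B12 at 936 with Kr-h1 siRNA and 1178 with GFP siRNA. The antioxidant enzyme of the mitochondrion, Sod2, fell to 1854 with Kr-h1 siRNA, against 2338 with GFP siRNA. The acetyl-CoA synthase gene AcCoAS, which turns acetate into acetyl-CoA, was at 187 with Kr-h1 siRNA and 396 with GFP siRNA.

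Among cytoplasmic and nuclear RNA genes the direction was mixed. Of 45 translation factors, 2 rose and 5 fell (4.44% and 11.1%), and of 51 splicing genes, 6 rose and 9 fell (11.8% and 17.6%). The shares of all genes tested were 8.95% and 5.90%. The splicing genes that fell included the core or early-complex members snf, SmB, SmD2, U2A and U2af38, from -0.39 for U2A to -0.24 for snf on the log2 scale of the authors' deposited table, and Prp18, at 1314 with Kr-h1 siRNA and 1671 with GFP siRNA. The splicing genes that rose included heph (0.43 in the authors' deposited table), pasilla (0.50) and Sf3b1 (0.30).

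Receptors and other signalling genes were more often higher than lower. The EGF receptor gene Egfr, through which the fly oocyte instructs follicle cells, had the smallest adjusted p of all genes with a symbol (2.20e-14 in the authors' deposited table, DESeq2), at 782 with Kr-h1 siRNA and 528 with GFP siRNA. That is a 1.48-fold difference with a recovered SE of 0.06 on the log2 scale. Its feedback inhibitor sty (sprouty) was at 322 with Kr-h1 siRNA and 184 with GFP siRNA, the ERK phosphatase Mkp3 at 304 with Kr-h1 siRNA and 218 with GFP siRNA, and the pathway's ETS transcription factor pnt (pointed) at 352 with Kr-h1 siRNA and 220 with GFP siRNA. Of 27 EGFR and ERK genes tested, 8 rose and none fell, with a median of 0.19. The share that rose was 29.6%, beside 8.95% of all genes tested, of which 5.90% fell. The inhibitors aop and aos were not called, at log2 0.19 and -0.02 in the authors' deposited table.

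In other signalling pathways, too, genes were more often higher than lower, and whole-ovary RNA does not show in which cells. The shares of all genes tested were 8.95% higher and 5.90% lower. Of 20 Wnt genes, 7 rose (35%) and none fell: the receptor fz2 was at 413 with Kr-h1 siRNA and 251 with GFP siRNA, the co-receptor arr at 415 with Kr-h1 siRNA and 346 with GFP siRNA, and the cell-surface proteoglycans dally and dlp at 3437 and 849 with Kr-h1 siRNA and at 2599.9 and 621 with GFP siRNA. The ligand wg was low and not called, at 98.9 with Kr-h1 siRNA and 89.8 with GFP siRNA. Of 18 BMP and activin genes, 5 rose (27.8%) and none fell, among them the activin receptor babo (533 with Kr-h1 siRNA, 362 with GFP siRNA), the BMP receptor sax (1.38-fold higher) and the signal transducer Smox (1.26-fold higher). The BMP receptors tkv and put and the ligand gbb were not called, at 0.24, 0.06 and -0.09 on the log2 scale of the authors' deposited table. Of 11 Hedgehog genes, 4 rose (36.4%) and none fell, among them the receptor ptc (457 with Kr-h1 siRNA, 341 with GFP siRNA) and the transcription factor ci (1.65-fold higher), while the ligand hh, at 49.2 with Kr-h1 siRNA and 52.8 with GFP siRNA, was not called.

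Of 24 Notch genes, 5 rose (20.8%, beside 8.95% of all genes tested). The gene pen-2, a subunit of the gamma-secretase that cuts the receptor, fell. The ubiquitin ligase neur, which activates the ligands, was 1.25-fold higher, the inhibitor numb at 3589 with Kr-h1 siRNA and 2874 with GFP siRNA, and the protease kuz was 1.32-fold higher. Of 7 JAK-STAT genes, Stat92E and Socs36E rose (28.6%), the first to 4157 with Kr-h1 siRNA against 3359 with GFP siRNA. The receptor dome was not called, at 1710 with Kr-h1 siRNA and 1447 with GFP siRNA. Of 17 Hippo and planar-polarity genes, the kinases hpo and wts and their partner mats rose (17.6%) and none fell (wts was 1.28-fold higher). The call of hpo is marginal (adjusted p = 0.0496 by DESeq2 in the authors' deposited table) and is lost with every gene in the adjustment (0.0564) or with centred fold changes (0.051). In the insulin and TOR list 9 of 31 rose (29.0%) and 2 fell (6.45%). Its members that rose included activators, such as the PI3-kinase adaptor Pi3K21B (1840 with Kr-h1 siRNA, 1295 with GFP siRNA), and inhibitors of growth, such as Sesn (1.64-fold higher) and foxo (1.22-fold higher). The 2 that fell were Rheb (2048 with Kr-h1 siRNA, 2414 with GFP siRNA), which activates TOR, and the TOR subunit Lst8 (1.16-fold lower). In the EGFR and ERK, Wnt, BMP and activin, Hedgehog, JAK-STAT, and Hippo and planar-polarity lists, 0 members were lower even at an unadjusted p under 0.05. Lists this short would hold few called falls at the 5.90% share of all genes tested.

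**Figure D4:**
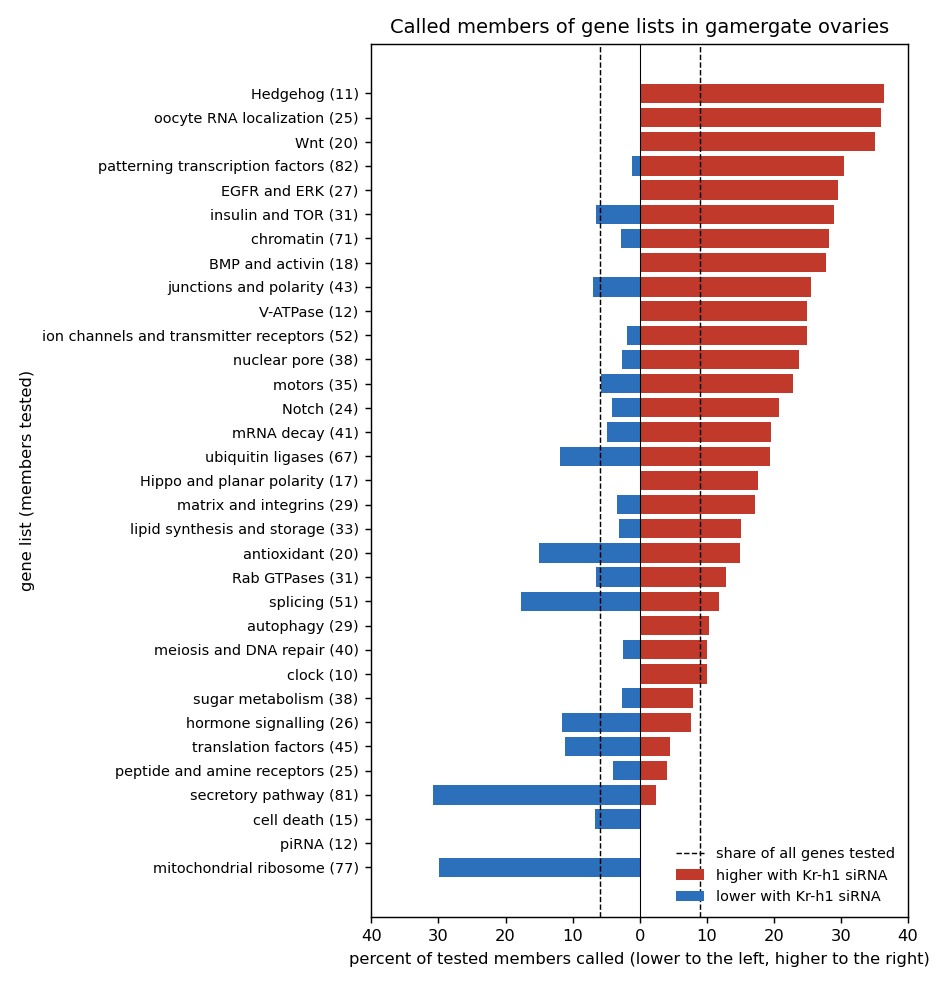
Bars give the percent of tested members of each gene list that rose (to the right) and fell (to the left) in gamergate ovaries, for the 33 lists with at least 10 tested members, whose number stands beside each name. Dashed lines mark the shares over all genes tested, 8.95% and 5.90%, and the bars to the left pass 20% only in the secretory pathway and the mitochondrial ribosome.

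Transcription factors of patterning rose more often than genes at large. Of 82 tested, 25 rose (30.5%) and 1 fell (1.22%), beside 8.95% and 5.90% of all genes tested. The list median was 0.30. The Hox gene Ubx had the smallest adjusted p of the list (3.65e-06 in the authors' deposited table, DESeq2) at a low level, 54.1 with Kr-h1 siRNA and 19.6 with GFP siRNA. The T-box factor bi (optomotor-blind) was at 84.7 with Kr-h1 siRNA and 33.6 with GFP siRNA, the POU factor vvl at 58.9 with Kr-h1 siRNA and 28.0 with GFP siRNA, and the zinc-finger factor salm at 808 with Kr-h1 siRNA and 491 with GFP siRNA. The AP-1 pair Jra and kay, which act downstream of JNK and help shape the fly eggshell, were at 678 and 1389.8 with Kr-h1 siRNA and at 441 and 956 with GFP siRNA. The sex-determination factor dsx was at 671.5 with Kr-h1 siRNA and 511 with GFP siRNA.

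Chromatin regulators showed a similar share with smaller changes. With a list median of 0.12, 20 of 71 tested rose (28.2%) and 2 fell (2.82%), beside 8.95% and 5.90% of all genes tested. They included both sides of the Polycomb and Trithorax balance: E(z), which writes the Polycomb mark, was at 1141 with Kr-h1 siRNA and 925 with GFP siRNA, and trx, its antagonist, at 768.5 with Kr-h1 siRNA and 557.5 with GFP siRNA. Remodelling subunits of the SWI/SNF family, osa (2729 with Kr-h1 siRNA, 1941 with GFP siRNA) and Bap170 (1.29-fold higher), and the demethylase Kdm3 (1.32-fold higher) rose as well. The cohesin loader Nipped-B was at 798 with Kr-h1 siRNA and 535 with GFP siRNA.

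Genes that hold epithelia together and anchor them were more often higher than lower, though most were not called. Of 43 junction and polarity genes, 11 rose (25.6%) and 3 fell (6.98%). Of 29 matrix and integrin genes, 5 rose (17.2%) and Chsy fell (3.45%), beside 8.95% and 5.90% of all genes tested. Those 5 include dally and dlp, which the Wnt list also holds. The apical polarity pair par-6 and aPKC was 1.38-fold and 1.28-fold higher, while the basolateral gene l(2)gl fell to 733 with Kr-h1 siRNA, against 1106 with GFP siRNA, a call lost with every gene in the adjustment (adjusted p = 0.0532, Benjamini-Hochberg on the DESeq2 p-values). The integrin linker rhea (talin) was at 3816 with Kr-h1 siRNA and 2666 with GFP siRNA, and the basement-membrane collagen Col4a1 at 1518 with Kr-h1 siRNA and 1111 with GFP siRNA. Of the catenins, alpha-Cat rose (2327 with Kr-h1 siRNA, 1937 with GFP siRNA) and arm was not called (log2 0.15 in the authors' deposited table), and Actn, an actin crosslinker, was not called either (0.43 there). The actin-binding gene cib (ciboulot) fell to 8768 with Kr-h1 siRNA, against 13073 with GFP siRNA.

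Genes that place and regulate maternal RNA in the oocyte were higher or not called, beside 8.95% higher and 5.90% lower among all genes tested. Of 25 tested, 9 rose (36%) and none fell by DESeq2 (0 lower at an unadjusted p under 0.05), with a median of 0.18. They were the adducin hts, which builds the fusome and ring canals of the fly germ line (2096 with Kr-h1 siRNA, 1679 with GFP siRNA), the dynein adaptor BicD (1.37-fold higher), the translational repressors smg (1.43-fold higher), pum (1.23-fold higher), brat (1.33-fold higher) and nanos (1.20-fold higher), and the RNA-binding or transport genes heph, bru3 and Lis-1. By contrast, none of 12 genes of the piRNA pathway, which silences transposons in the germ line, rose or fell by the adjusted p of DESeq2 (1 higher and 0 lower at an unadjusted p under 0.05), and their median was 0.07. The Argonaute genes AGO1, AGO2 and AGO3 stood at 0.13, -0.06 and -0.09 on the log2 scale of the authors' deposited table and none was called.

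Among metabolic genes a few rose strongly. Miox, which opens inositol to glucuronate, was at 677 with Kr-h1 siRNA and 233 with GFP siRNA, and the trehalose transporter Tret1, which takes the blood sugar of insects into cells, at 1383 with Kr-h1 siRNA and 523 with GFP siRNA. The peroxiredoxin-like Tpx-4 was at 301 with Kr-h1 siRNA and 112 with GFP siRNA. The lipid-synthesis enzymes ATPCL, ACC and FASN1, which follow each other from citrate to fatty acid, rose to 2644, 1312 and 1614 with Kr-h1 siRNA, against 2220, 1045 and 1188 with GFP siRNA. The lipid carrier apolpp was at 2684 with Kr-h1 siRNA and 1033 with GFP siRNA, and its relative Apoltp, at 1778 with Kr-h1 siRNA and 1766 with GFP siRNA, was not called. Of 38 sugar-metabolism genes 3 rose and 1 fell (7.89% and 2.63%), of 33 lipid genes 5 rose and 1 fell (15.2% and 3.03%), and of 20 antioxidant genes 3 rose and 3 fell (15% each). The shares of all genes tested were 8.95% and 5.90%.

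Some markers of fat body, muscle and nerve were higher in the same comparison, and their part in these results was not tested. Of 9 fat-body genes 4 rose (apolpp, FASN1, Vhdl and Tsf1) and none fell by DESeq2 (0 lower at an unadjusted p under 0.05, also in muscle and nerve), and their summed derived level was 9312 with Kr-h1 siRNA and 5604 with GFP siRNA. The storage-protein gene Vhdl was low, with a 1.89-fold difference and a derived level of 28.0 with GFP siRNA. Of 14 muscle genes 4 rose (Lmpt, Mef2, Msp300 and tmod) and none fell, with sums of 14422 with Kr-h1 siRNA and 12576 with GFP siRNA. Of 11 nerve genes 4 rose (para, nAChRalpha1, Syt1 and Snap25) and none fell, with sums of 3592 with Kr-h1 siRNA and 3132 with GFP siRNA. The shares that rose were 44.4% in fat body, 28.6% in muscle and 36.4% in nerve, beside 8.95% of all genes tested. None of 4 haemocyte genes was called by DESeq2 or at an unadjusted p under 0.05 (sums 2553 with Kr-h1 siRNA, 2968 with GFP siRNA). In the trachea and cuticle list 2 of 6 fell (33.3%, beside 5.90% of all genes tested), with sums of 1804 with Kr-h1 siRNA and 2416 with GFP siRNA. The 1 gut gene tested fell, and no member of these lists was at 0.

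Channel genes, some of which the nerve list shares, were also more often higher. Of 52 ion-channel and transmitter-receptor genes tested, 13 rose (25%) and Elk fell (1.92%), beside 8.95% and 5.90% of all genes tested. The list median of 0.37 was the highest of the 35 gene lists. The potassium channels slo and Shal were at 585 and 106 with Kr-h1 siRNA and at 385 and 62.1 with GFP siRNA, the sodium channel para at 672 with Kr-h1 siRNA and 456 with GFP siRNA, and the calcium-channel subunit Ca-beta at 847.5 with Kr-h1 siRNA and 598 with GFP siRNA. Elk, a potassium channel of the ether-a-go-go family, was at 132 with Kr-h1 siRNA and 484 with GFP siRNA. Peptide and amine receptors did not share this: of 25 tested, 1 rose and 1 fell (4% each), smaller shares than among all genes tested. DopEcR, which in flies answers to both dopamine and ecdysteroids, rose (414 with Kr-h1 siRNA, 228 with GFP siRNA). GABA-B-R3 fell (23.7 with Kr-h1 siRNA, 61.8 with GFP siRNA).

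Most members of the remaining lists were not called. Of 40 meiosis and repair genes 4 rose and 1 fell, of 38 nuclear-pore genes 9 and 1, of 67 ubiquitin-ligase genes 13 and 8, of 41 mRNA-decay genes 8 and 2, and of 35 motor genes 8 and 2. In that order 10%, 23.7%, 19.4%, 19.5% and 22.9% rose, beside 8.95% of all genes tested. The shares that fell were 2.5%, 2.63%, 11.9%, 4.88% and 5.71%, beside 5.90%. By DESeq2, autophagy had 3 of 29 higher and 0 lower, V-ATPase 3 and 0 of 12, Rab GTPases 4 and 2 of 31, the clock list 1 and 0 of 10, and cell death 0 and 1 of 15. At an unadjusted p under 0.05, the zeros became 1 lower in autophagy, 3 in V-ATPase and 1 in the clock list, and 3 higher in cell death. By adjusted p the shares that rose were 10.3% in autophagy, 25% in V-ATPase, 12.9% in Rab GTPases and 10% in the clock list. Those that fell were 6.45% in Rab GTPases and 6.67% in cell death. Single genes in these lists that stood out by adjusted p were the decay factor Tis11, which binds AU-rich messages (408 with Kr-h1 siRNA, 276 with GFP siRNA), and the ubiquitin-ligase subunit SkpA (1.36-fold lower). Among genes outside the lists that have a symbol and average 50 or more, those that rose with the smallest adjusted p were Pits (1253 with Kr-h1 siRNA, 791 with GFP siRNA) and the calcium sensor Nca (1.30-fold higher). The chaperone Hsp90, at 17845 with Kr-h1 siRNA and 12180 with GFP siRNA, was the most abundant called gene with a symbol that rose. The gene with the largest rise among those that have a symbol and average 50 or more was bnb (256 with Kr-h1 siRNA, 33.7 with GFP siRNA). Genes with no descriptive symbol made up 494 of the 997 that rose and 370 of the 657 that fell, among them LOC105191686 (263.5 with Kr-h1 siRNA, 34.0 with GFP siRNA).

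The same siRNA in workers gave another response, from ants that share no library with the gamergates. Of 10577 genes tested in workers, 236 were called higher (2.23%) and 284 lower (2.69%) by the adjusted p of DESeq2. A test of the difference of the 2 log2 fold changes, over 10453 genes tested in both, called 542 genes as more positive in gamergates (5.19%) and 551 as more positive in workers (5.27%). Worker fold changes have a wider recovered SE (median 0.21, against 0.13 in gamergates), so a missing call in workers says little by itself. They also went with abundance, with a median of -0.49 for means under 50 and 0.12 for means from 1000 to 3000, where the gamergate medians were 0.11 and -0.01. Counts of differing genes are therefore given below also with this trend removed (a running median over ranked means) wherever they then moved by over 1.5 times.

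The nuclear receptor genes Hr3 and Hr4, the cadherin Cad88C and several eggshell genes had more negative fold changes in gamergates than in workers. For Hr3 the log2 fold change in the authors' deposited table was -1.83 in gamergates and -0.16 in workers, and for Hr4 -0.86 in gamergates and 0.27 in workers. The differences were -1.67 (SE 0.42, adjusted p = 0.00393, Benjamini-Hochberg) and -1.12 (SE 0.28, adjusted p = 0.00361). For ndl the difference was -2.34 (SE 0.60), with called falls in both castes (-3.87 in gamergates and -1.53 in workers in the authors' deposited table). Cad88C (-2.76), wbl (-1.18) and sel (-1.44) also differed. In workers Cad88C and wbl were at 0.29 and 0.47, and sel, which was lower in gamergates, was called higher (1.08 in the authors' deposited table). For br the values were -2.07 in gamergates and -0.98 in workers, and their difference of -1.09 (SE 0.87, 95% interval -2.80 to 0.62) did not pass. Chsy, Past1 and Elk fell in both castes and their differences did not pass (-0.44, -0.47 and 0.67).

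The secretory and mitochondrial lists differed in one direction. Of 81 secretory genes 0 were more positive in gamergates and 13 in workers (1 and 28 at an unadjusted p under 0.05), with list medians of -0.12 in gamergates and 0.12 in workers. Sec61alpha differed by -0.95 (SE 0.21) and Manf by -0.94 (SE 0.22). Of 77 mitochondrial-ribosome genes 0 were more positive in gamergates and 12 in workers (0 and 48 at an unadjusted p under 0.05). Their medians were -0.24 in gamergates and 0.20 in workers, where DESeq2 called no member and 6 were higher and 0 lower at an unadjusted p under 0.05. With the trend on mean count removed, 7 secretory and 5 mitochondrial-ribosome genes were more positive in workers and 0 of either list in gamergates. In workers 64 of the 70 ribosomal proteins among them had a positive fold change. CysRS-m differed by -0.73, DNApol-gamma35 by -1.33, the dynactin gene Arp10 by -0.93 and the protein-degradation gene Ufd1-like by -0.79, and these last 3 were called lower in gamergates and higher in workers.

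Patterning factors and cell-surface genes were often more positive in gamergates, beside 5.19% of all genes tested in both castes. The counts run over all list members tested in both, whether or not they rose in gamergates. Of 77 patterning factors tested in both, 21 were more positive in gamergates and 1 in workers, with medians of 0.30 in gamergates and -0.20 in workers. Ubx differed by 2.73 (SE 0.48), Jra by 1.87, ci by 1.75, mirr by 1.66 and bi by 2.31. Of 42 junction and polarity genes 11 were more positive in gamergates and 1 in workers, of 29 matrix genes 8 and 0, of 47 channels 8 and 0, and of 27 EGFR and ERK genes 5 and 0, sty (1.42) and Mkp3 (0.95) among them. With the trend on mean count removed, 3 channels and 8 EGFR and ERK genes were more positive in gamergates, and 3 patterning factors in workers. The difference for Egfr itself, 0.76 with an SE of 0.29, did not pass (adjusted p = 0.0638). The receptors babo (1.12) and fz2 (1.39) differed. For chromatin genes such counts were near 0: 0 of 71 were more positive in gamergates and 1 in workers (6 and 6 at an unadjusted p under 0.05; 1 and 0 by adjusted p with the trend removed), and DESeq2 called no member in workers, where 11 were higher and 0 lower at an unadjusted p under 0.05.

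Several of the genes that rose most in gamergates had negative values in workers, none of them called there. Miox was at 1.54 in gamergates and -1.37 in workers in the authors' deposited table, a difference of 2.91 (SE 0.51), and bnb at 2.92 in gamergates and -1.59 in workers, a difference of 4.51 (SE 1.11). For Tpx-4 the difference was 2.32, and for LOC105191686 it was 4.05. Tret1 (2.90, adjusted p = 0.059) and apolpp (2.42, adjusted p = 0.121) did not pass. Of the marker lists, 2 of 8 fat-body, 4 of 14 muscle and 2 of 7 nerve genes tested in both were more positive in gamergates and none in workers. With the trend on mean count removed these counts were 1 fat-body gene, without Vhdl, 6 muscle genes and 2 nerve genes, and their part in these differences was not tested.

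**Figure D5:**
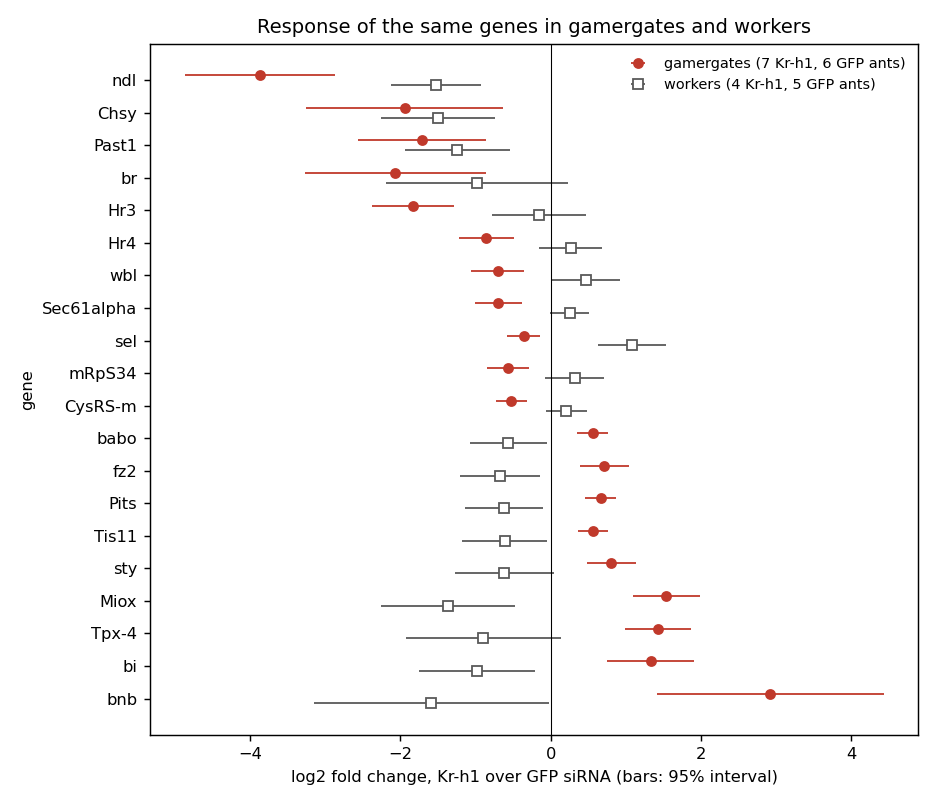
Log2 fold change of Kr-h1 over GFP siRNA for 20 named genes, with filled circles for gamergates and open squares for workers and bars for the 95% interval from the recovered SE. Chsy and Past1 lie below 0 in both castes with overlapping bars, whereas sel lies at -0.36 in gamergates and 1.08 in workers and Miox at 1.54 in gamergates and -1.37 in workers.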

How the data were processed

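RNA of single-ant ovaries was sequenced as strand-specific polyadenylated libraries, per the labels' protocols. The submitters' processing notes list DESeq2, featureCounts, STAR and bcl2fastq but neither versions nor settings, and no genome build, annotation or strand setting of the counting is given in the sources used here. The authors deposited 1 table of 13693 genes and 3 comparisons, which holds for every comparison the mean normalized count, the p-value, its adjusted value and the log2 fold change. It holds no values per ant and 0 further value columns, so depth is unknown, no count model was refitted, and the authors' adjusted p at 0.05 was used as it stands. Each group's level was derived from the mean, the fold change and the group sizes. The GFP gamergate level was derived in this way from the knockdown comparison and from the caste comparison. Over 8786 genes the first was higher by a median of 0.035 on the log2 scale, with an SD of 0.0013. The 2 derivations thus differed by a nearly constant offset.

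The SE was recovered by dividing the fold change by the normal quantile that its p-value stands for, as holds for a Wald test, and 95% intervals follow from it. The responses of gamergates and workers were compared by a z test on these SEs with Benjamini-Hochberg adjustment over 10453 genes, a step checked on artificial data with known answers. RefSeq's gene table (assembly Hsal_v8.6) gave symbols and served for names only: 13681 IDs matched and 4116 (30.1%) have a descriptive symbol, mostly that of a presumed fly counterpart. Coordinates and sequences were not used here, and a planned count of promoter words was not made.

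The samples and the 35 gene lists and 8 marker lists were chosen with earlier results of these data known, and 32 symbols that the list patterns matched by mistake were taken out after the table had been seen. Named genes are Kr-h1, and, of those called genes that have a symbol and average 50 or more, the 10 with the smallest adjusted p and the 12 with the largest fold change in each direction. The rule adds the 5 called genes of highest mean, up to 4 called members per list, called markers, and ligands, receptors and transcription factors of the listed pathways. Other genes, chiefly further list members and the genes without a p-value, were chosen after their values were seen. Python 3.11.15, pandas 2.3.3, numpy 2.4.6, scipy 1.17.1, statsmodels 0.14.6 and matplotlib 3.10.9 were used.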

Additional observations from a re-analysis of the deposited data

Results flagged for a closer look

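For 57 of the 176 named genes with an adjusted p, the response to Kr-h1 siRNA differed between gamergates and workers by a z test. It tested the difference itself, with Benjamini-Hochberg adjustment over 10453 genes. Of those, 5.19% were called more positive in gamergates and 5.27% in workers. Many genes were named for their gamergate calls or fold changes, which favours such a difference. These counts are therefore not a result about the named genes as a set. The values below are differences of log2 fold changes, gamergates minus workers. In 34 of the 57 genes the gamergate response was the more positive one. The largest such differences were those of LOC105185960 (4.97), bnb (4.51), LOC105191686 (4.05), Miox (2.91), Ubx (2.73), Tpx-4 (2.32), bi (2.31) and vvl (2.07). Differences from 1 to 2 belonged to nAChRalpha1 (1.96), Jra (1.87), ci (1.75), Vhdl (1.71), mirr (1.66), gbb (1.54), bru3 (1.47), sty (1.42), fz2 (1.39), Pits (1.28), Sesn (1.24), Tis11 (1.18), kay (1.13), babo (1.12), Snap25 (1.10), pnt (1.03) and Shal (1.00). Smaller ones belonged to Col4a1 (0.99), dsx (0.99), Mkp3 (0.95), Msp300 (0.92), Nipped-B (0.85), Tl (0.77), Pi3K21B (0.73), dlp (0.62) and hts (0.60). They include the signalling genes sty, Mkp3, babo and fz2 and the transcription factors Ubx, bi, Jra, ci and mirr.

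In the other 23 the worker response was the more positive one, namely Cad88C (-2.76), ndl (-2.34), Hr3 (-1.67), sel (-1.44), dib (-1.43), DNApol-gamma35 (-1.33), sro (-1.31), wbl (-1.18), Hr4 (-1.12), mRpL17 (-1.01), Srp9 (-1.0), Sec61alpha (-0.95), Manf (-0.94), Arp10 (-0.93), mRpS34 (-0.89), Ufd1-like (-0.79), CysRS-m (-0.73), Calr (-0.73), SkpA (-0.71), tko (-0.70), Prp18 (-0.60), Ostgamma (-0.53) and Sec22 (-0.44). Among them are the nuclear receptors Hr3 and Hr4, the eggshell gene ndl, and genes of protein export and of the mitochondrial ribosome. The ecdysteroid-synthesis genes dib and sro were at -0.01 and -0.11 in gamergates and at 1.43 and 1.20 in workers on the log2 scale of the authors' deposited table. Worker fold changes ran with mean count, and with that trend removed 48 of the 57 kept an adjusted p under 0.05. The other 9 were Calr, LOC105185960, Ostgamma, Prp18, Sec22, Shal, Vhdl, gbb and tko. The worker groups held 4 ants with Kr-h1 siRNA and 5 with GFP siRNA, and no value per ant could be used for either caste.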

How the results depend on the processing

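No paired analysis was possible because the table used here holds no values per ant, and for the same reason leaving out each ant in turn was not run. With a stricter adjusted p of 0.01, 393 genes were higher and 187 lower (61 and 33 by at least 2-fold), and 359 differed between castes, where 0.05 gave 997, 657, 129, 74 and 1093. With Benjamini-Yekutieli adjustment, 223 were higher and 94 lower (43 and 22 by at least 2-fold). Keeping only genes with a mean of at least 50 left 76 and 39 changed by at least 2-fold. The counts of higher and lower genes stayed within 1.5 times when that minimum was set, when every gene with a p-value entered the adjustment, and when fold changes were centred on the median. With every gene in the adjustment, fs(1)N (adjusted p = 0.0563, DESeq2 p-values adjusted by Benjamini-Hochberg), l(2)gl (0.0532), hpo (0.0564) and LOC105190024 (0.0513) no longer passed, and with centring hpo did not (0.051). So did the number that differed between castes with the minimum (920) and with the trend on mean count removed (895). Depth is unknown, and the spread between ants enters only through the p-values of the table.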

Other observations

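The steepest called rises of genes that average 50 or more were in 3 uncharacterized genes, which were chosen after their values were seen. LOC105183092 had a derived level of 270 in Kr-h1 siRNA gamergates and 14.1 in GFP siRNA gamergates, with a log2 fold change of 4.26 in the authors' deposited table and a recovered SE of 1.04. LOC105185960 was at 209 with Kr-h1 siRNA and 11.4 with GFP siRNA, and LOC105185178 at 302 with Kr-h1 siRNA and 21.1 with GFP siRNA. None of the 3 passed in workers by DESeq2 (adjusted p from 0.451 to 0.96). Among genes that fell, LOC105190024 was at 27.8 with Kr-h1 siRNA and 456 with GFP siRNA (adjusted p = 0.0451 in the authors' deposited table, DESeq2, and 0.0513 with every gene in the adjustment), and LOC105184230, a more abundant gene, at 347 with Kr-h1 siRNA and 2200 with GFP siRNA. All 5 are protein-coding in the RefSeq table and have no descriptive symbol. Of the 662 long non-coding RNAs tested, 14 rose and 12 fell, smaller shares than the 8.95% and 5.90% of all genes tested.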
